A study of Harpegnathos saltator with 18 samples.

Results

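The ovary of gamergates was compared with the fat body of workers in Harpegnathos saltator, an ant whose workers can mate and become egg layers called gamergates. Polyadenylated RNA of 3 gamergate ovary and 3 worker fat body libraries was used, chosen by their labelled tissue from the 18 libraries of 6 tissues in the series. All ants were kept under the same nest conditions and fed live crickets, per the labels, which give no age, colony or number of animals per library. Because every ovary came from gamergates and every fat body from workers, organ and caste cannot be told apart in any value below. Nor do the labels say whether replicates are separate animals. The p-values therefore cover the spread among these 6 libraries, and that spread may be technical.

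The insect ovary houses the germ line, with nurse cells that load the growing oocyte with RNA and follicle cells that surround it and lay down the eggshell. The fat body stores lipid, glycogen and protein and, like a liver, makes and secretes the abundant proteins of the blood, among them storage proteins and yolk precursors that the oocyte takes up. The genes behind these roles cannot be pointed out here. The deposited table lists 20755 gene models without names, and 0 of their identifiers were found among the 14329 genes of the RefSeq reference. Gene models, the rows of the table, are therefore described by their levels, and 4 are given by identifier: in each direction, the model with the largest difference and the model with the highest mean level among those called with no overlap between the organs. For the same reason the labelled organs could not be checked against marker genes. Values are RPKM, read counts scaled to the length of the gene model and to the reads of the library. The library totals recovered from the steps between low values were 14.7 to 30.1 M (mega) reads in ovary and 8.2 to 16.2 M reads in fat body.

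The libraries of an organ resembled each other more than those of the other organ. Across the 9792 gene models tested, which are not independent replicates, the correlation of log2(RPKM + 1) was 0.858 to 0.903 between ovary libraries and 0.836 to 0.892 between fat body libraries. Between the organs it was 0.449 to 0.571. Different libraries stood apart on different measures. Fat body replicate 3 had the lower correlations of its organ, at 0.852 and 0.836 against 0.892 between replicates 1 and 2, and the fewest models at 1 RPKM or more. In ovary replicate 2 a single gene model held 31.4% of all RPKM, against 5.8% and 10% for the highest model of the other ovary libraries. The median of the tested models was also lowest there, at 6.36 RPKM against 14.6 in replicate 1 and 8.83 in replicate 3.

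Among the fat body libraries, replicate 1 stood apart on a list of models abundant in ovary, and not by its correlations. The list held 87 gene models with a mean of at least 50 RPKM in ovary and at most 1/30 of that mean in each brain and retina library, a list that does not use the fat body. In fat body replicate 1 the median model of the list stood at 0.595% of its ovary level and 14 models stood at 10% or more. In replicates 2 and 3 the median was 0%, with 3 and 2 models at 10% or more. This was not particular to fat body. In antenna replicates 1, 2 and 3 the median was 0%, 1.39% and 0%, with 1, 11 and 4 models at 10% or more. The second most abundant ovary model, at 19913, 53842 and 25065 RPKM in the 3 ovary libraries, lay at 4020 RPKM in fat body replicate 1 and at 50.9 and 113 RPKM in replicates 2 and 3. The most abundant ovary model had the same order, at 42.5, 13.2 and 41.1 RPKM in fat body replicates 1, 2 and 3. There replicate 1 was close to replicate 3. The model at rank 5 had this order too, at 10.5, 2.48 and 2.94 RPKM. Models at ranks 3 and 4 did not share it. The third model lay at 51.4, 234 and 36.6 RPKM in fat body replicates 1, 2 and 3, highest in replicate 2, and the fourth at 6.72, 1.18 and 12.3 RPKM, highest in replicate 3. The reverse list of 14 models, chosen on fat body in the same way, had medians of 0.91%, 0.987% and 1.37% of the fat body level in ovary replicates 1, 2 and 3. In each ovary library 3 of these 14 models stood at 10% or more. The highest value there was 666%, 2231% and 826% of the fat body level, so the list included a model more abundant in ovary. On the ovary list the highest values were 105%, 165% and 57% of the ovary level in fat body replicates 1, 2 and 3. Whether such transcripts came from tissue carried along in dissection was not tested.

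In both organs a few transcripts made up much of the RNA. The 10 highest gene models held 22.1%, 52.2% and 28.1% of the RPKM in ovary replicates 1, 2 and 3, and 31.4%, 24.1% and 30.1% in the fat body libraries. The ranges overlapped (exact permutation test, two-sided, p = 0.9). The 100 highest models held 60.2%, 52% and 61.8% in fat body and 37.3%, 63.1% and 45.9% in ovary, where replicate 2 lay above every fat body library (exact permutation p = 0.4). It took 52, 90 and 49 gene models to reach 50% of the RPKM in fat body, and 347, 5 and 139 in ovary. The 5 models of ovary replicate 2 are the lowest number of the 6 libraries.

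More gene models were detected in ovary. At 1 RPKM or more, 10312, 9271 and 9952 models were seen in the ovary libraries and 8167, 8530 and 7016 in the fat body libraries, without overlap. The means were 9845 ± 529 and 7904 ± 790 (SD, n = 3), and the exact permutation p of 0.1 is the smallest that 3 against 3 libraries can give. Adjusted over the 6 such measures compared it was 0.3. With total reads thinned to the shallowest library the means were 9855 and 7876. Thinning matched total reads alone. Reads in gene models were still 41 to 68.4% of the total in ovary and 47.8 to 56.2% in fat body, and the part of this in the difference was not tested. At 100 RPKM or more the organs were near each other, with 341 to 499 models in ovary and 396 to 499 in fat body.

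**Figure D1:**
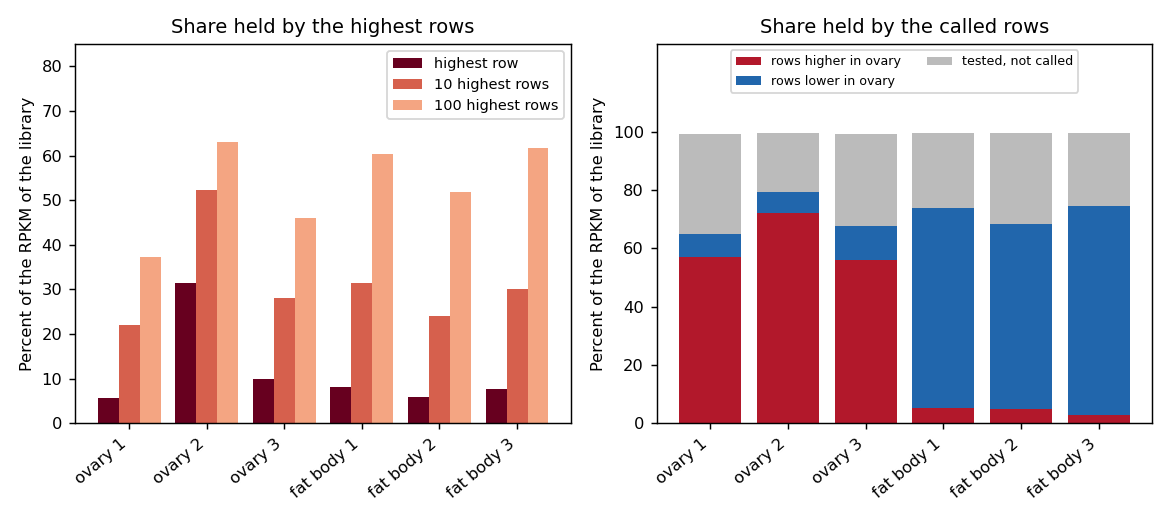
Left, percent of the RPKM of each library held by its highest, 10 highest and 100 highest gene models; right, percent held by the models called higher in ovary, called lower in ovary and tested but not called. Each bar is 1 library. The highest model of ovary replicate 2 reaches 31.4%, and the models called lower in ovary hold 63.4 to 71.6% of fat body RPKM.

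Of the 9792 gene models tested, 3512 were higher in ovary and 695 were lower, which is 35.9% and 7.1% of the models. Those called higher had a median log2 difference of 2.21 and those called lower of -2.18, on the scale of log2(RPKM + 1), which understates the change of models near 1 RPKM. A model was called at a difference of at least 2-fold with an adjusted p under 0.05 by limma, with Benjamini-Hochberg adjustment over all models tested. Differences were large in both directions. At least 4-fold were 2144 of the higher and 398 of the lower models, at least 16-fold 278 and 133, at least 64-fold 61 and 43, and at least 256-fold 16 and 2. Among the called models, 3360 of the higher and 679 of the lower had no overlap between the 3 ovary and the 3 fat body libraries, a separation that 44.9% and 9.28% of all tested models showed in the upward and downward direction. In bulk organs, fewer cells of a type and less RNA per cell cannot be told apart.

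The balance of directions depended on the scaling, while no model called in one direction was called in the other under another scaling. As deposited, the median gene model lay 1.08 higher in ovary on the log2 scale, and 83.5% of the calls were higher there. With trimmed-mean factors between libraries the median was 0.37 and the calls were 1830 higher and 1250 lower (59.4% higher, with 18.7% and 12.8% of the models called). Quantile normalization gives all libraries the same distribution over the tested models, which pulls the median towards 0 by construction. After it the median was 0.02, with 1366 higher and 1368 lower (50% higher, 14% called each way). Under all 3 scalings 1235 models were higher in ovary, 35.2% of those called as deposited. On the other side 627 were lower under all 3, or 90.2%. Of the 1235 the median deposited difference was 3.13, and of the 627 it was -2.37. The number of higher models was 1763 without ovary replicate 1 and 2095 without ovary replicate 3. Without fat body replicate 3 the numbers were 3049 and 694. Without ovary replicate 2, with its single dominant model, and fat body replicate 1, which stood apart on the ovary list, 2637 models were higher and 454 lower, of which 2427 and 442 were also called with all 6 libraries.

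**Figure D2:**
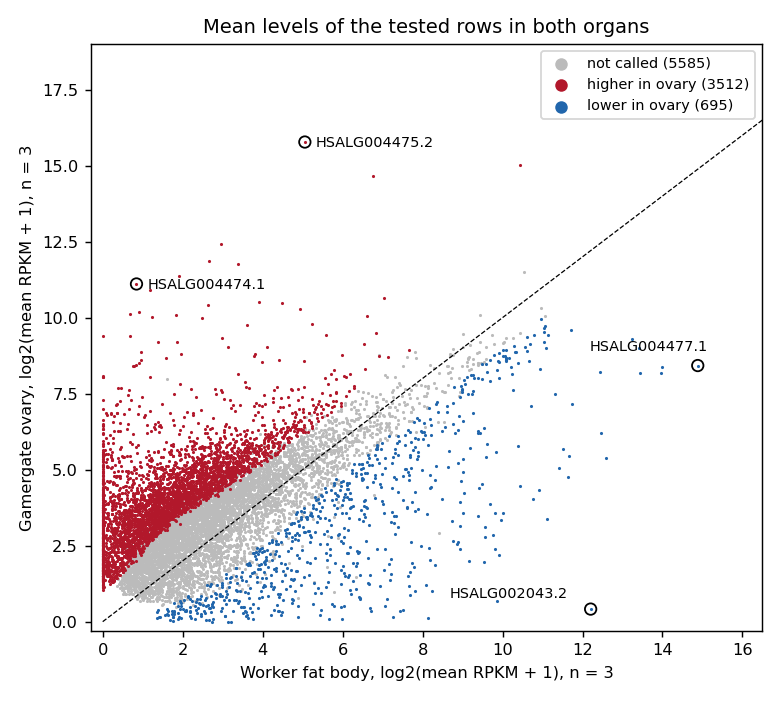
Mean level of each tested gene model in worker fat body (x axis) and gamergate ovary (y axis), both as log2 of the mean RPKM of 3 libraries plus 1, with called models in colour and the 4 named models circled. The dashed line marks equal levels. Most of the 3512 models called higher in ovary lie at low and middle levels, and the models at the upper right lie mostly below the line.

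Direction went with abundance. Among 5632 models with a mean under 10 RPKM over the 6 libraries, 1884 were higher in ovary and 190 lower, or 33.5% and 3.37%. Of the 3688 models from 10 to below 100 RPKM, 1539 were higher and 301 lower. From 100 to below 1000 RPKM it was 81 higher and 172 lower of 428 models, and at 1000 RPKM or more 8 higher and 32 lower of 44. Kept under all 3 scalings were 472 higher and 190 lower models under 10 RPKM, 694 and 298 from 10 to below 100 RPKM, 61 and 121 from 100 to below 1000 RPKM, and 8 and 18 at 1000 RPKM or more.

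The leading transcripts of each organ were mostly far lower in the other organ. All 10 of the most abundant fat body models were called higher in fat body, against 7.1% of all tested models. Their median level in ovary was 1.9% of that in fat body. For the ovary 9 of the 10 were called higher in ovary, against 35.9% of all tested models, with a median level in fat body of 0.131%. Ranking by the level in an organ favours models that are higher there, so these counts describe the lists and are no test. Other worker tissues could hold leading fat body transcripts as well. The fifth, at 7591, 7390 and 17912 RPKM in fat body, stood at 3752 to 5956 RPKM in retina and 3424 to 4138 RPKM in antenna. Those ranked above it did not exceed 3172 RPKM in these tissues. Further down the lists the organs came closer. The 100 most abundant models of the ovary included 42 called higher in ovary, near the 35.9% of all tested models, and 27 called lower, against 7.1%. In the same way the 100 of the fat body included 83 called higher in fat body (7.1% of all tested models) and 1 called lower there. Both lists shared 41 models, 41% of each, of which 27 were lower in ovary and 1 was higher.

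The largest difference in favour of ovary was that of HSALG004474.1, a gene model with a recovered length of 456 bases. It stood at 2002, 2604 and 2007 RPKM in ovary replicates 1, 2 and 3, and at 2.39, 0 and 0 RPKM in the fat body libraries. The ovary values lay within a narrow band, and only fat body replicate 1 held any reads, 16 in number. The log2 difference was 10.51 (SE 0.50, adjusted p = 1.42e-08, limma), or 9.43 above the median model. Its place above HSALG004475.2 depended on the pseudocount and on the libraries. HSALG004475.2 was larger with a pseudocount of 5 (10.02 against 8.59), without ovary replicate 3 (10.88 against 10.57) and without fat body replicate 3 (10.48 against 10.22). It was smaller with a pseudocount of 0.1 (10.28 against 12.87) and with voom (10.32 against 12.95). Outside the ovary HSALG004474.1 reached 40.7 RPKM in antenna replicate 2 and 0.43 RPKM in retina replicate 2. It was listed at 0 in the other 10 libraries of the antenna, retina and brain parts.

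HSALG004475.2, with a recovered length of 3321 bases, was the most abundant model of the ovary. Its levels were 23821, 130006 and 14408 RPKM in ovary and 42.5, 13.2 and 41.1 RPKM in fat body. It is the model that held 31.4% of the RPKM of ovary replicate 2, against 5.8% and 3.58% in replicates 1 and 3. All ovary libraries lay far above all fat body libraries, though its choice already required no overlap. The ovary libraries differed widely among themselves, and the mean was 56079 ± 64196 RPKM (SD, n = 3). The log2 difference was 10.23 (SE 0.69, adjusted p = 1.87e-07, limma). In the antenna it was seen at 39.1, 1049 and 58.5 RPKM, and in the brain parts and retina at no more than 15.3 RPKM.

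On the fat body side HSALG002043.2, with a recovered length of 2058 bases, had the largest difference. It stood at 5868, 7009 and 1268 RPKM in fat body and at 0.36, 0.5 and 0.13 RPKM in ovary, where 17, 31 and 4 reads were recovered. Fat body replicate 3 was the lowest of its organ, and the organs were still far apart in level (log2 difference -11.46, SE 0.57, adjusted p = 1.42e-08, limma). The other worker tissues lay between the organs. The model averaged 189 ± 79.1 RPKM in retina, 264 ± 373 in antenna, 23.3 ± 25.8 in optic lobe and 6.9 ± 10.7 in non-visual brain.

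HSALG004477.1, with a recovered length of 597 bases, was the most abundant model of the fat body and held 5.93 to 8.2% of its RPKM. Its levels were 31254, 24509 and 34807 RPKM in fat body and 238, 176 and 613 RPKM in ovary. The fat body libraries lay close together and, as its choice required, above every ovary library (log2 difference -6.66, SE 0.49, adjusted p = 2.62e-07, limma). Retina and antenna held it as well, at 1629 ± 789 and 1609 ± 1473 RPKM, above the ovary mean of 342 ± 236. Optic lobe averaged 102 ± 88.9 RPKM and non-visual brain 245 ± 183. The sources used here do not say how reads shared between near-identical copies were counted, so these levels are uncertain if such copies exist.

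**Figure D3:**
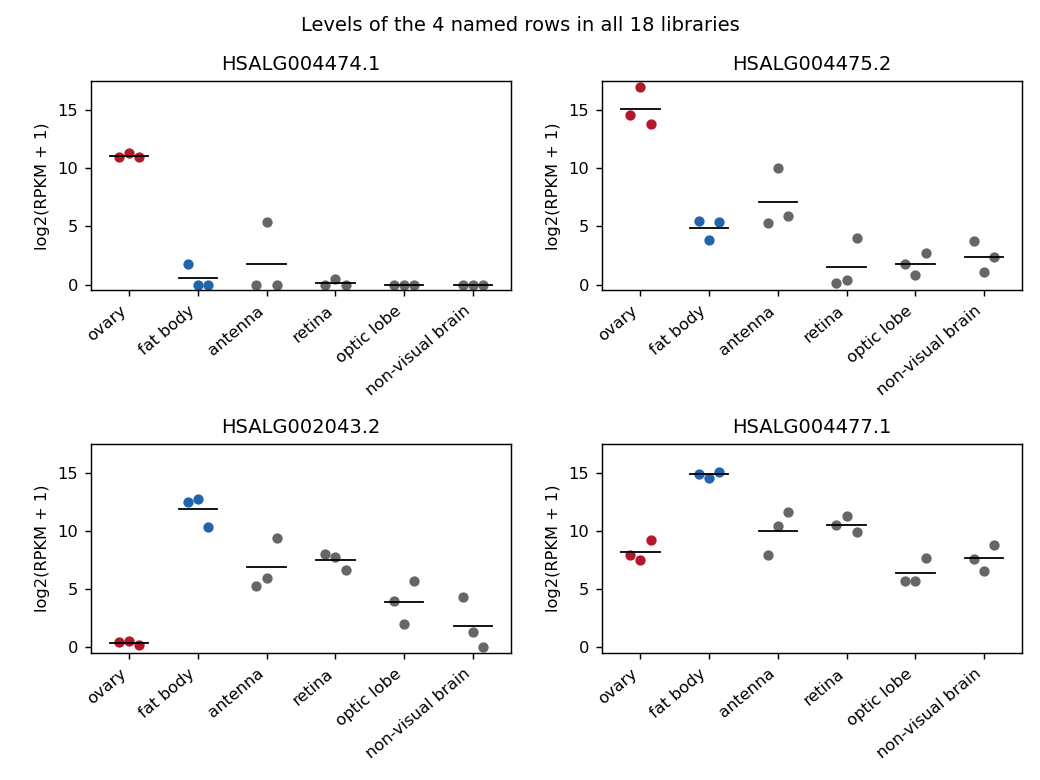
Levels of the 4 named gene models as log2(RPKM + 1) in all 18 libraries, 1 point per library and a line at the mean of 3, with ovary in red, fat body in blue and the other worker tissues in grey. Outside the ovary HSALG004474.1 sits at or near 0 in all but antenna replicate 2 and, at 2.39 RPKM, fat body replicate 1. HSALG004475.2 reaches similar levels in fat body and in antenna replicates 1 and 3, and both fat body models are also seen in antenna and retina.

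Some models abundant in ovary differed strongly between ovary libraries. Of the 3512 models higher in ovary, 58 had a range of at least 3 log2 units among the ovary libraries, and 49 of these were lowest in replicate 2. Abundant transcripts were among them. A model at 7237 and 9264 RPKM in ovary replicates 1 and 3 stood at 139 RPKM in replicate 2, another at 7261 and 3932 RPKM stood at 67.7 RPKM, and another at 3131 and 4759 RPKM stood at 27.8 RPKM. All 3 were still above every fat body library, where they did not exceed 12.3 RPKM. Ovary replicate 2 thus combined the highest level of HSALG004475.2 with the lowest of several other abundant ovary models. The labels say nothing of the egg stages in a library. Wide ranges were not particular to ovary. Of the 695 models higher in fat body 15 had such a range among the fat body libraries, 9 of them lowest in replicate 3, and over all 9792 tested models it was 469 in fat body and 108 in ovary.

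Presence in a single organ was nearly one-sided. In all, 380 models were at 1 RPKM or more in every ovary library and listed at 0 in every fat body library, and 3 showed the opposite pattern. With 3 reads over the 3 fat body libraries as the floor, the 380 were at least 41-fold higher in ovary by their median, and 108 were at least 100-fold higher. Such floors cover counting error only. They also take each read as an independent molecule, which was not tested, and would give too high a fold where it is not. Their median level was 5.07 RPKM in ovary, with 111 models at 10 RPKM or more. The most abundant of them stood at 378, 329 and 1333 RPKM in the ovary libraries. The 3 models of the fat body averaged 5.68 to 8.19 RPKM there and were at least 66.6- to 93.5-fold lower in ovary. With total reads thinned to the shallowest library, which leaves the share of reads in models as it was, the numbers were 361 and 10. They were 640 and 633 for ovary when fat body replicate 1 or 2 was left out. For fat body the number was 12 without ovary replicate 1, 6 without ovary replicate 2 or 3, 8 without fat body replicate 1 or 2 and 11 without fat body replicate 3. Of the 380, 48 were also listed at 0 in all 12 libraries of antenna, retina and brain parts, and 82 stood at 1 RPKM or more in every optic lobe library. Absence from fat body did not therefore mean presence in ovary alone.

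The 12 libraries of the 4 other worker tissues, which played no part in the calls, showed where the called models stand elsewhere. Models higher in ovary were not generally higher in the other tissues. Their median log2(RPKM + 1), averaged over 3 libraries, was 2.8 ± 0.25 (SD) in non-visual brain, 3.07 ± 0.23 in optic lobe, 1.88 ± 0.3 in retina and 1 ± 1.2 in antenna. The medians of all tested models were 3.22, 3.47, 2.35 and 2.26 in the same tissues. In fat body the set stood at 1.25 ± 0.51 and in ovary at 3.95 ± 0.56. The levels of these models in brain, optic lobe and retina thus lay between those in fat body and ovary.

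The models called lower in ovary had medians above that of all tested models in all 4 other tissues. Their median was 3.97 ± 0.24 in non-visual brain, 3.92 ± 0.25 in optic lobe, 3.7 ± 0.39 in retina and 4.19 ± 0.74 in antenna, against 5.78 ± 0.17 in fat body and 2.66 ± 0.27 in ovary. They held 57.5 to 61.2% of the RPKM in retina, 24.5 to 42.9% in antenna and 16 to 29.7% in the brain parts. The 627 models kept under all 3 scalings held less, with 50.2 to 57.1% in retina, 14.4 to 34% in antenna and 12.3 to 14.7% in the brain parts. Fat body had the highest mean of the 6 tissues for 475 of the 695 models (68.3%, against 9.25% of all tested models). Ovary had the lowest for 275 (39.6%, against 7.23%). Since the 695 were chosen as higher in fat body than in ovary, these shares are partly built in.

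Setting both organs against all other libraries divided the calls further. For 1083 of the 3512 models higher in ovary, 30.8%, every ovary library lay above all 15 worker libraries. For 125, or 3.56%, every fat body library lay below all 15 others, so that the fat body was the extreme. Over all tested models these shares were 11.7% and 1.82%. Of the 695 models lower in ovary, 308 were above all 15 other libraries in fat body (44.3%, against 3.59% of all tested models) and 112 were below all worker libraries in ovary (16.1%, against 1.32%). Since the ovary and fat body libraries chose the models, these shares describe the calls and are no test of them.

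**Figure D4:**
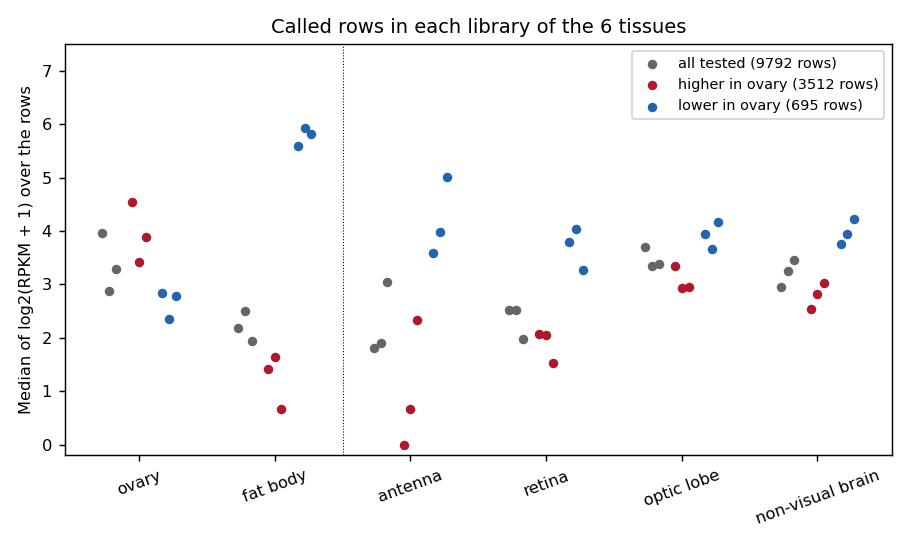
Median of log2(RPKM + 1) over all tested gene models (grey), those higher in ovary (red) and those lower in ovary (blue), 1 point per library in each of the 6 tissues. Left of the dotted line are the organs that chose the models. To its right, the blue points lie above the grey ones in the antenna, retina, optic lobe and non-visual brain, and the red ones lie below them on average.

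Called models differed in length by direction. For models with HSALG identifiers, the recovery tried lengths that are multiples of 3 first. That 99.7% of these lengths were multiples of 3 therefore does not show that they are coding lengths. Among these models the median recovered length was 924 bases for those lower in ovary, 1185 for those higher and 1118 for all tested. Under 500 bases were 27.7% of the lower, 16.8% of the higher and 19.3% of all tested models. Of 1839 models under 500 bases, 31.6% were higher in ovary and 10.1% lower, and of 1680 models from 2000 to below 4000 bases, 38.2% and 4.52%. The 658 models of 4000 bases or more broke this order, with 29.9% higher and 5.17% lower. The HSALG models among the 380 seen in ovary and not in fat body had a median of 592.5 bases, and the 3 of the opposite pattern one of 507 bases.

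Loci with XLOC identifiers made up 252 of the tested models. Their lengths, recovered without a preference for multiples of 3, were such multiples in 35.3% of cases, a share not comparable with that of HSALG models. Higher in ovary were 52 (20.6%) and lower 28 (11.1%), against 36.3% and 6.99% of the 9540 HSALG models. Another scaling turned their balance. It was 34 higher against 49 lower with trimmed-mean factors, and 22 against 77 after quantile normalization. Without ovary replicate 1, 35 were higher and 16 lower, and without ovary replicate 2 and fat body replicate 1 together 14 were lower.

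The locus with the largest difference towards fat body, 1314 bases long, stood at 664, 551 and 1028 RPKM in fat body and at 3.34, 1.32 and 3.99 RPKM in ovary. The log2 difference was -7.61 (SE 0.46, adjusted p = 1.04e-07, limma). Among the other tissues it was highest in antenna replicate 3, at 48.1 RPKM, and did not exceed 16.6 RPKM in the other libraries. Towards ovary the largest difference was that of a locus of 912 bases at 30.2, 68 and 52.5 RPKM in ovary and 0.896, 0.135 and 0 RPKM in fat body. Its log2 difference was 5.24 (SE 0.59, adjusted p = 1.55e-05, limma). Both loci separated the organs fully.

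The number of models shown to be at a like level in both organs depended on the processing. For 46 of the 9792 the 95% confidence interval of the log2 difference lay inside 2-fold in either direction, and these had a median of 60.5 RPKM over the 6 libraries, against 8 RPKM for all tested models. The median half-width of the interval was 1.25 log2 units, so a gene model that was not called may still differ by more than 2-fold. The number alike was 266 with trimmed-mean factors, 520 after quantile normalization, 616 with library weights, 2052 with a pseudocount of 5, 4346 with no filter, 23 with all 6 tissues in the fit and 12 with voom. It was 0 without fat body replicate 1, 7 without replicate 2 and 14 without replicate 3, 15 without ovary replicate 3 and 12 without ovary replicate 2 and fat body replicate 1 together.

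**Figure D5:**
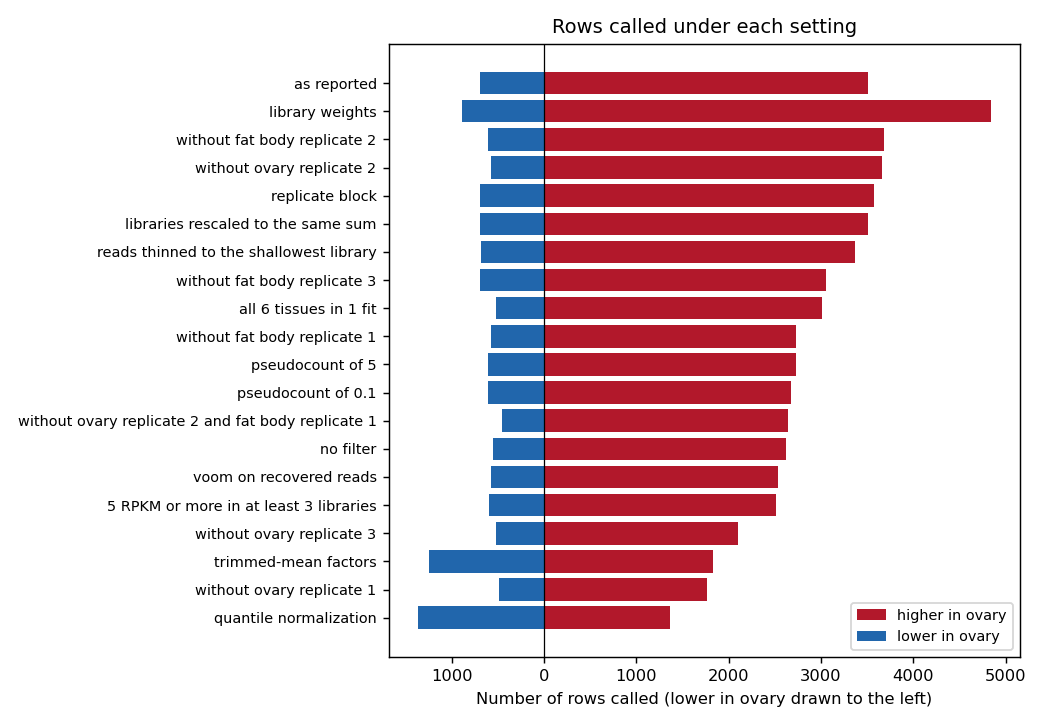
Number of gene models called higher (red, to the right) and lower (blue, to the left) in ovary with all 6 libraries as deposited (top bar) and under each alternative, in order of the higher count. The higher count runs from 1366 with quantile normalization to 4843 with library weights, and the lower count from 454 without ovary replicate 2 and fat body replicate 1 to 1368 with quantile normalization.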

How the data were processed

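The deposited values are RPKM, scaled by the authors to gene model length and library total in 1 column per library. Libraries were unstranded, per the labels' protocols, so overlapping antisense genes cannot be told apart. STAR 2.5.0b and DESeq2 appear, without a role, in the submitters' processing notes, with genome build, annotation and counting not given in the sources used here. Gene models at 1 RPKM or more in at least 3 of the 6 libraries entered the test. Differences of log2(RPKM + 1) on the 6 libraries alone were fitted in limma (version 3.58.1, R 4.3.3), letting the variance follow the mean level, and p-values were adjusted by Benjamini-Hochberg. Library totals, lengths and whole reads were recovered jointly from the RPKM steps for 18557 of 18589 models above 0. Lengths that are multiples of 3 were tried first for HSALG models only. Of recovered values under 30000 reads, 99.9986% lay within 0.1 of a whole number. Since steps and lengths were chosen to make the values whole, this share is no separate check of the recovery. Among recovered counts of 1 to 10, 46.2 to 51.4% were even in ovary and 62.8 to 67.5% in fat body. Whether reads are independent molecules was not tested. In simulated data the totals of all 18 libraries were returned, with every read right in 97.1% of recovered models. In a separate simulation limma called 52% of 4-fold and 2% of 2-fold changes, with 7 false calls among 9375 unchanged models. It gave all models the same relative spread, changed few models, all with ample reads, and had no difference in scaling between libraries. These shares are therefore not the error rates of the calls above. The models and lists were chosen with earlier results of these data known. The named models were picked by the rule given with them, and models without identifier as examples after their values were seen.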

Additional observations from a re-analysis of the deposited data

How the results depend on the processing

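All 4 named models kept their direction and stayed past the threshold under the 19 alternatives of the fit. Trimmed-mean factors gave 1830 higher and 1250 lower models, 34 and 49 XLOC loci, 266 models alike within 2-fold and a median of 0.37; quantile normalization gave 1366, 1368, 22, 77, 520 and 0.0218. The number alike was 4346 with no filter, 2052 with a pseudocount of 5, 616 with library weights, 23 with all 6 tissues in the fit and 12 with voom. XLOC loci higher were 30 with a filter of 5 RPKM, 82 with library weights and 32 with a pseudocount of 5. With no filter the median was 0.413. Leaving out libraries gave 1763 to 3678 higher models, 494 to 694 lower, 35 to 56 XLOC loci higher, 16 to 26 lower, and 0 to 68 models alike. Without ovary replicate 2 and fat body replicate 1 together, chosen after seeing the data, 454 models and 14 XLOC loci were lower and 12 were alike. Models in ovary only were 133 at 5 RPKM and 416 to 640 with a library left out, and in fat body only 0 at 5 RPKM, 10 with total reads thinned and 6 to 12 with a library left out. The 100 highest models held 58% in fat body, and the 10 highest 44.3% of recovered reads. At 10 RPKM, 4753 models were seen in ovary and 2616 in fat body. The fat body list in ovary ranged from 0.786 to 1.23%. The causes were not tested. In the replicate block the calls were 3569 higher and 699 lower. Deviations of same-numbered libraries correlated at 0.0276, 0.133 and 0.147, and those of differently numbered libraries lower, at -0.131 to 0.0118. The numbers were not taken as pairs, and whether same-numbered libraries share a batch was not tested.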
